A study of Mus musculus with 2 samples.

Results

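The 9 complement genes described here are C1qa, C1qb, C1qc, C2, C3, C4b, Hc, Cfb and Serping1, chosen by name among the 29004 features of the deposited count matrices, and all 9 were present. Their transcripts were followed across the 23 cell clusters that the authors assigned to dissociated lungs of 6-day-old mouse pups. The pups of both groups were Gli1CreERT2/+,R26RtdT/+, with a Cre that tamoxifen switches on in Gli1-expressing cells and a tdTomato reporter, and all received tamoxifen subcutaneously at day 1. At day 3 one group received 5E1, an antibody that blocks Hedgehog ligands, and the other received control IgG, also subcutaneously. The lungs of 3 pups were pooled in each group, so each condition is 1 library and single pups cannot be told apart.

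Complement is a set of blood and tissue proteins that tag surfaces for uptake or lysis. In the classical pathway C1q, built from A, B and C chains, binds antibody or other targets and its associated proteases cleave C4 and C2 to form a C3 convertase. Factor B serves the matching convertase of the alternative pathway, cleaved C3 attaches to the target, and cleaved C5 opens the terminal, pore-forming steps. C1 inhibitor, the product of Serping1, blocks the proteases of C1. The liver makes most plasma complement, tissue macrophages are a known source of C1q, and type II alveolar epithelial cells (AT2 cells) are known to make several components.

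The libraries held 13509 annotated cells with 77436890 UMIs for IgG and 9454 with 58890639 for 5E1, with medians of 4541 and 4636 UMIs per cell. A UMI, or unique molecular identifier, counts 1 captured transcript molecule, and CPM is a gene's UMIs per 1000000 UMIs of the same cluster in the same library. UMIs tag transcript ends, so no length scaling applies, and levels are compared between cell clusters and not between genes. Clusters carry the authors' numbers, and names with the ending "-like" were given here from marker genes that include none of the 9. At 2-fold over the other clusters or more stood 11 of 11 mesothelial markers in cluster 17, 14 of 16 interstitial macrophage markers in cluster 8 and 14 of 14 AT2 markers in cluster 9. Clusters 12, 14 and 22 had 1 marker of their name among their 10 leading genes and cluster 21 had 2, clusters 3 and 10 held markers of several types and stayed unnamed, and platelet genes led clusters 16 (Ppbp) and 14 (Itga2b). The IgG library held 4 UMIs of the Y-linked genes counted and the 5E1 library 5009, so the pools differed in the sex of their pups along with the antibody. Of the 5E1 cells, 2289 held Xist but no UMI of a Y-linked gene (Xist-only cells from here on). Where only these were used, all IgG cells were kept without that filter. Detection of either transcript depends on a cell's depth, so that setting is not a like match by sex. In addition, 184 barcode sequences occurred in both libraries. Ptch1, a target of Hedgehog signalling, was 97.9 CPM in IgG and 21.5 in 5E1 in matrix fibroblast-like cluster 19. No difference between the libraries has a replicate check, and all intervals are exact 95% intervals that cover counting error only.

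The authors made the clusters from these cells and may have used these genes, so differences between clusters are described without a test. C1qa, C1qb and C1qc were among the 10 leading genes of cluster 8, and Hc was among those of cluster 9. In the annotation of GRCm38 all 9 are protein-coding genes on the minus strand. The C1q genes lie side by side on chromosome 4, C1qb at chr4:136880129-136886187, C1qc at chr4:136889804-136893065 and C1qa at chr4:136895917-136898803, with 3616 and 2851 bases between neighbours. C4b (chr17:34728380-34743882), Cfb (chr17:34856374-34862518) and C2 (chr17:34862604-34898265) share a stretch of chromosome 17, and only 85 bases separate Cfb from C2. C3 lies farther along chromosome 17, at chr17:57203970-57228136. Hc, the gene of C5, lies at chr2:34983331-35061438 and Serping1 at chr2:84765387-84775444. C4a, a close copy of C4b, was not analysed here, and how reads that fit both were counted was not checked, so the C4b levels are uncertain to that extent.

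Promoter windows are shown for C1qb, C1qc, C3 and Hc, whose transcripts marked 3 different cell types, the 4 of the 9 members matched in the RefSeq promoter table (GRCm38.p6). Each window holds 250 bases before the annotated start and 50 from it on, is printed 5′ to 3′ on the minus strand, and lies at chr4:136886151-136886450 for C1qb, chr4:136892865-136893164 for C1qc, chr17:57228087-57228386 for C3 and chr2:35061363-35061662 for Hc. Capitals mark matches on either strand to the ETS-type cores GAGGAA and GGAAGT, the C/EBP-type pattern TTNNGNAA and the TATA box TATAAA.
C1qb: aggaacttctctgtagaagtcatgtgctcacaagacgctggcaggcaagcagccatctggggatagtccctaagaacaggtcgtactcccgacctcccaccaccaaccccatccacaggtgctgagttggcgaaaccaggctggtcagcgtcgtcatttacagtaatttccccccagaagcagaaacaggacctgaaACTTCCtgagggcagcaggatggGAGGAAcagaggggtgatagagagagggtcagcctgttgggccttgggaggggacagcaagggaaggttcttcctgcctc
C1qc: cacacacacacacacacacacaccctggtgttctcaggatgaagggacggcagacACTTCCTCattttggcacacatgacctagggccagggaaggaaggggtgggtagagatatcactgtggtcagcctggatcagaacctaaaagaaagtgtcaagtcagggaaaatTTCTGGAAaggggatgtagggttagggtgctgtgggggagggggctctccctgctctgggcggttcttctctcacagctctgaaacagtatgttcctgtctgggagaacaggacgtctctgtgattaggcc
C3: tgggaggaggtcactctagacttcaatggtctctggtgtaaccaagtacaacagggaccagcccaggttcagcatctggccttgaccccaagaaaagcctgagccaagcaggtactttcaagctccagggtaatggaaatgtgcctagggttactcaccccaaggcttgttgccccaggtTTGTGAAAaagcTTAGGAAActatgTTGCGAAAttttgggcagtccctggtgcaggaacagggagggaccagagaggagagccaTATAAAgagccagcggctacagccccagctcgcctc
Hc: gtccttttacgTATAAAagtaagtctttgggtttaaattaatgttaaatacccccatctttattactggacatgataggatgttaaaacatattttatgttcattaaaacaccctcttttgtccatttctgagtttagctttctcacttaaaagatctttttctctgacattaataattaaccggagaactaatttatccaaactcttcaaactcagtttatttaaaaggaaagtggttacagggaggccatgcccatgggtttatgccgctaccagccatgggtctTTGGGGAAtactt
Both C1q windows held GAGGAA and GGAAGT, which overlapped by 4 bases in C1qc, and these motifs occurred in 28.3% and 23.8% of the 32851 promoters of the table. The C3 window held 3 matches to TTNNGNAA between 45 and 70 bases before the start, a pattern found in 40.7% of promoters and also once each in the C1qc and Hc windows. TATAAA stood in the C3 and Hc windows and in 13.6% of promoters, 239 bases before the annotated start in Hc and 14 bases after it in C3. An NF-kB-type pattern matched in all 4 windows and in 50.8% of promoters, and it is not capitalised. Neither an interferon-response element pattern nor the STAT pattern TTCNNNGAA matched in any of the 4, against 3.44% and 8.30% of promoters. These are letter matches and were not tied to binding.

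Transcripts of the 3 C1q chains were concentrated in interstitial macrophage-like cells (cluster 8), resident macrophages of the lung tissue outside the air spaces. In these cells C1qa stood at 5929 CPM in IgG and 6124 in 5E1, C1qb at 4828 and 4987, and C1qc at 3886 and 4301. The cluster's 323 IgG and 234 5E1 cells held between 77.0% and 88.1% of each chain's UMIs in the library. Every one of these cells held UMIs of all 3 chains, with medians of 83 and 91.5 C1q UMIs per cell. After thinning each cell to 1000 UMIs, 97.8% and 95.7% of them still held a C1qa UMI, against 0.800% and 0.235% of B cell-like cells (cluster 4). Without thinning, 2.37% and 2.11% of the B cell-like cells held one, at median depths of 2498.5 and 3325 UMIs against 5411 and 5647.5 in cluster 8.

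**Figure D1:**
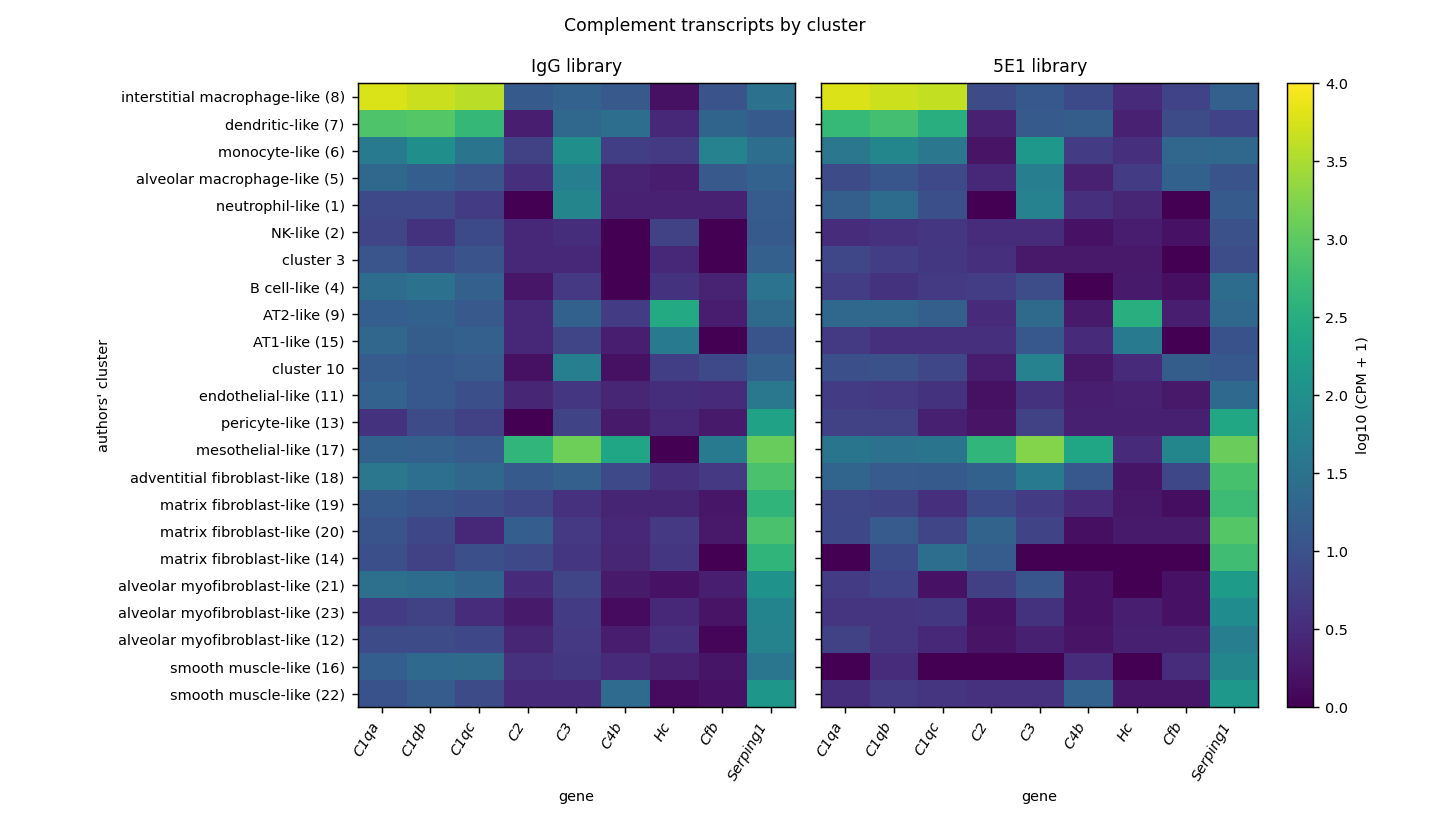
Levels of the 9 members (columns) in the 23 clusters (rows), 1 panel per library, as log10 (CPM + 1) in colour, from 1 pool of 3 pups each. C1q is brightest in cluster 8 (5929 and 6124 CPM for C1qa), C2, C3, C4b and Serping1 in cluster 17, and Hc in cluster 9 (274 and 332 CPM).

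Dendritic-like cells (cluster 7) came second, with C1qa at 785 CPM (interval 744 to 829) in IgG and 477 (443 to 513) in 5E1, C1qb at 880 and 636, and C1qc at 468 and 330. Most of their cells held little: 65 of 259 IgG barcodes and 48 of 200 5E1 barcodes held at least 10 C1q UMIs and accounted for 96.9% and 96.8% of the cluster's C1q. Of 16 interstitial macrophage markers those barcodes had a median of 4 in both libraries, and the other barcodes 1. Their medians of 5 dendritic markers of 15 stood against 6 and 7 in the others, at median depths of 7082 and 8072.5 against 5757 and 6758 UMIs. Summed, the dendritic markers were 21679.1 and 20132.2 CPM in the C1q-rich barcodes and 37473.6 and 39542.5 CPM in the others. C1qa was 1540 and 986 CPM in cells with relatively more interstitial macrophage than dendritic markers. It was 290 and 187 CPM in those with relatively more dendritic markers. The 5E1 to IgG ratio of C1qa in cluster 7 was 0.607 (interval 0.554 to 0.666), but with only the Xist-only cells of 5E1 its log2 was -0.04. Monocyte-like cells (cluster 6) held C1qa at 44.0 and 37.2 CPM, and 24 of 1070 and 8 of 418 barcodes carried 81.2% and 83.5% of their C1q. In those with relatively more classical than nonclassical monocyte markers C1qa was 34.8 and 6.55 CPM, on 97 and 5 UMIs. In those with relatively more nonclassical markers it was 62.9 and 63.2 CPM, on 85 and 57 UMIs.

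The chains took similar proportions in both libraries of cluster 8 and other proportions in clusters 6 and 7. C1qb made up 33.0% of C1q UMIs (interval 32.4 to 33.5) in IgG and 32.4% (31.7 to 33.0) in 5E1. In the dendritic-like cluster it made up 41.3% (39.6 to 42.9) and 44.1% (42.0 to 46.2), and in monocyte-like cells 55.2% (51.4 to 58.8) and 47.3% (40.8 to 53.8). C1qa made up 40.5% and 39.7% in cluster 8, 36.8% and 33.1% in cluster 7 and 25.3% and 26.2% in cluster 6. The intervals of C1qb in clusters 6 and 7 did not reach those of cluster 8 in either library, although the UMIs of 1 cell are not independent of one another. In alveolar macrophage-like cells (cluster 5), the other resident macrophages, C1qa was only 20.3 and 7.39 CPM, and 26 of its 56 IgG UMIs came from 1 of 1019 cells.

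**Figure D2:**
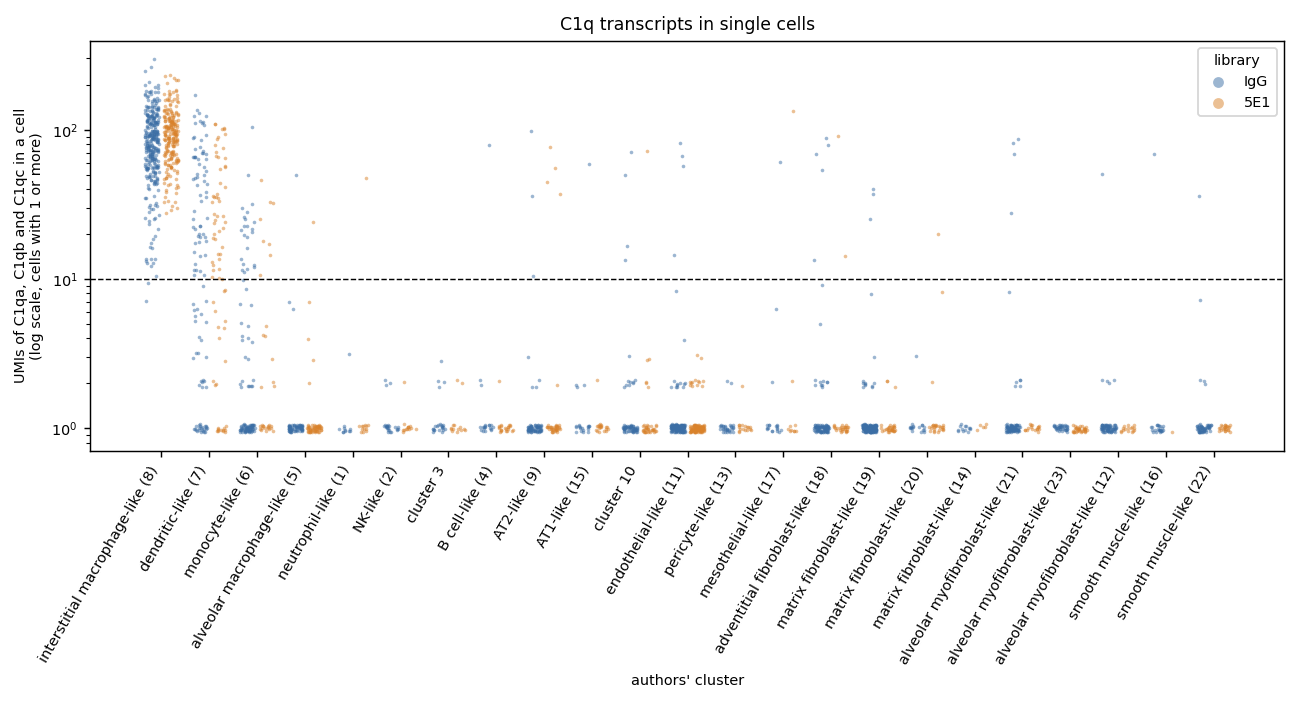
UMIs of C1qa, C1qb and C1qc together in each cell with at least 1 (points, log axis, jittered), by cluster and library, with a dashed line at 10. Cluster 8 lies above the line in all but 2 IgG cells, clusters 7 and 6 span it, and elsewhere most points are single UMIs with 30 IgG and 11 5E1 cells above it.

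Outside clusters 6, 7 and 8, few barcodes held a large part of the C1q, and the rest was spread over many cells with few UMIs each. Among 11857 IgG and 8602 5E1 cells there, 30 and 11 barcodes held at least 10 C1q UMIs, and these carried 57.6% and 51.3% of the C1q found. They had medians of 9 and 7 interstitial macrophage markers of 16 against 2 and 1 in the remaining cells, and medians of 10916.5 and 13403 UMIs against 4582 and 4591. Without them the summed level of the chains fell from 39.9 to 17.03 CPM in IgG and from 21.9 to 10.7 CPM in 5E1. Whether these barcodes held more than 1 cell was not tested.

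Over all clusters, of 35 chain and cluster pairs with a sum of 50 UMIs or more over the libraries, 18 were at least 1.5-fold lower in 5E1 and 3 at least 1.5-fold higher, where 6.32% and 4.38% of all 166920 gene and cluster pairs were. In the alveolar myofibroblast-like cluster 21, C1qa was 28.6 CPM in IgG and 4.12 in 5E1, and 8.05 and 4.12 once 4 IgG barcodes were left out. In endothelial-like cells (cluster 11) it was 16.8 and 4.16 CPM, and 6.74 and 4.16 without 4 IgG barcodes. In mesothelial-like cells (cluster 17), where all 3 chains were counted as higher, 1 barcode held 47 of the 50 C1qa UMIs of 5E1, and without the richest barcode of each library C1qa was 4.29 and 2.10 CPM. In a setting chosen after seeing the data, all barcodes with 10 or more C1q UMIs outside cluster 8 were left out. Those with 10 or more C3 UMIs outside clusters 8 and 17 were left out too. Together these were 121 IgG and 81 5E1 barcodes, and 89 and 56 of the C1q-rich ones lay in clusters 6 and 7. Over the 9 members 24 of 77 pairs were lower and 8 higher with all cells. In the setting without these barcodes 12 of 53 were lower and 3 higher, where 6.28% and 4.43% of all pairs were. The barcodes were chosen by C1q and C3 UMIs, so these shares are not a like background for the members. Of the 24 lower pairs 9 were still lower, 3 came within 1.5-fold and 12 fell under 50 UMIs, and 3 pairs within 1.5-fold before became lower. In cluster 8 itself no chain reached 1.5-fold: the ratios were 1.03 for C1qa (interval 1.005 to 1.062), 1.03 for C1qb (1.002 to 1.065) and 1.11 for C1qc (1.07 to 1.14).

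**Figure D3:**
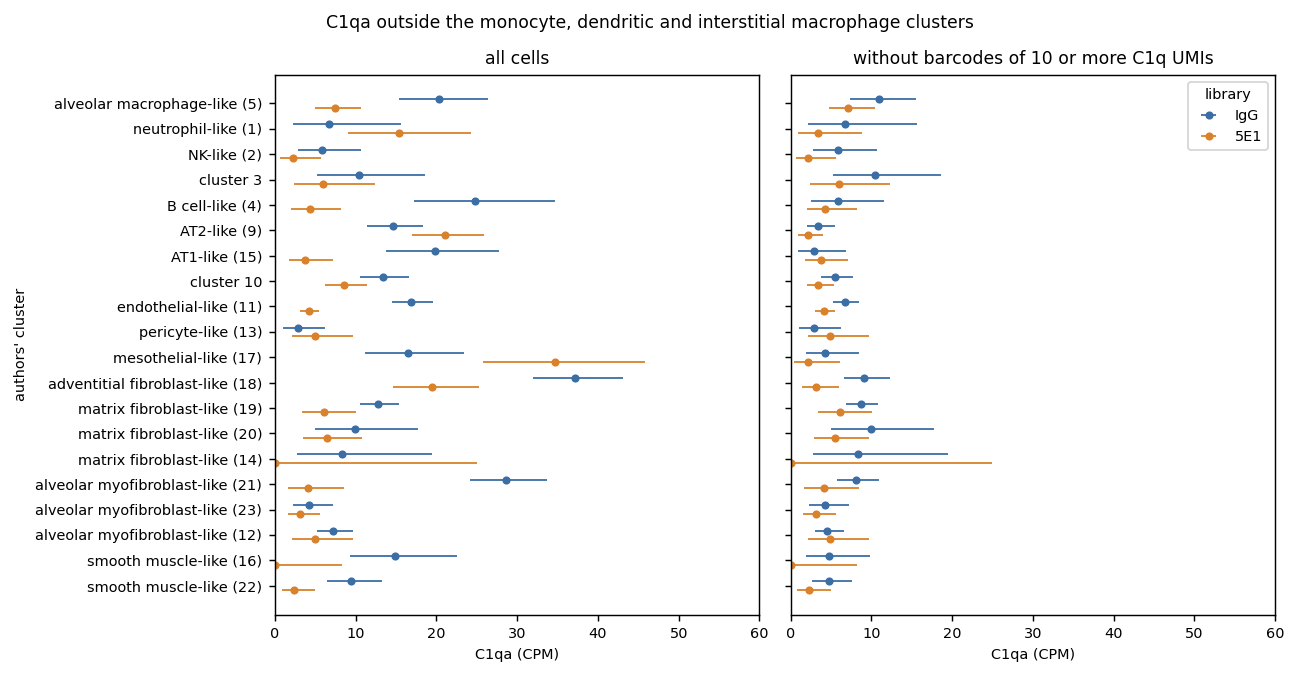
C1qa level (CPM, points) with exact 95% counting intervals (bars) in the 20 clusters other than 6, 7 and 8, in all cells (left) and without barcodes of 10 or more C1q UMIs (right). In cluster 21 the IgG level falls from 28.6 to 8.05 CPM while the 5E1 level stays at 4.12.

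C2, the classical protease that joins C4 in the convertase, was found mainly in mesothelial-like cells, the lining of the lung surface. This cluster of 169 IgG and 113 5E1 cells held 796 and 609 C2 UMIs, which is 423 CPM in both libraries (intervals 394 to 454 and 390 to 458), and 75.02% and 76.6% of all C2. The next cluster, matrix fibroblast-like cluster 20, held 14.4 and 17.5 CPM, and its interval overlapped that of the adventitial fibroblast-like cells (cluster 18; 12.7 and 16.3 CPM). A UMI of C2 was found in 122 of 169 and 92 of 113 mesothelial-like cells, and after thinning in 24.3% and 31.0%, while 0.263% and 1.88% of B cell-like cells held one without thinning. The median depths of cluster 17 were 7806 and 8833 UMIs. The interval of the C2 ratio in mesothelial-like cells ran from 0.898 to 1.11.

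C4b, the other classical convertase component, had the same leading cluster, with 230 CPM in IgG (interval 208 to 252) and 224 in 5E1 (200 to 250), and 60.1% and 66.0% of its UMIs there. Far lower levels followed in smooth muscle-like cluster 22 (24.3 and 16.8 CPM) and in dendritic-like cells (26.5 and 14.03 CPM), whose intervals overlapped. Within the dendritic-like cluster, 45 of 45 IgG and 20 of 21 5E1 UMIs of C4b came from the cells with relatively more interstitial macrophage than dendritic markers. C4b was at least 1.5-fold lower in 5E1 there, by 45 against 21 UMIs (log2 ratio -0.90, and -0.39 without the deepest 5% of cells), and at least 1.5-fold higher in adventitial fibroblast-like cells, at 6.68 CPM on 32 UMIs and 11.8 CPM on 34. B cell-like cells held no C4b UMI in 380 and 426 cells, which by the limit of 3 counts allows a share of up to 0.789% and 0.704% of cells with one.

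C3, the component on which all pathways converge, stood at 1289 CPM (interval 1238 to 1341) in the mesothelial-like cells of IgG and 1836 (1767 to 1907) in those of 5E1. These clusters held 64.8% and 69.0% of all C3 UMIs. The gene was uneven among the cells: 121 of 169 IgG and 91 of 113 5E1 cells held a UMI, with medians of 7 and 11 and maxima of 136 and 178 UMIs per cell. After thinning to 1000 UMIs, 49.1% and 61.1% held one, against 0.533% and 0.469% of B cell-like cells. The ratio of 1.42 (interval 1.35 to 1.51) stayed under the 1.5-fold limit, and passed it without the deepest 5% of cells (log2 ratio 0.63) and among the Xist-only cells of 5E1 (0.82).

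Monocyte-like cells came second for C3 at 98.5 CPM (interval 89.2 to 109) and 135 (118 to 154), a ratio of 1.37 (1.16 to 1.62). Neutrophil-like cells (cluster 1) held 65.5 and 58.0 CPM, alveolar macrophage-like cells 52.5 and 49.6 CPM, and the mixed secretory and ciliated cluster 10 52.4 and 58.3 CPM, with overlapping intervals in both libraries. B cell-like cells held 3.64 and 7.67 CPM. In cluster 10, C3 stood at 57.9 and 63.1 CPM in cells with relatively more secretory markers and 39.0 and 48.9 CPM in those with more ciliated markers. The largest C3 difference lay in adventitial fibroblast-like cells, 15.7 CPM in IgG and 44.0 in 5E1, a ratio of 2.81 (interval 2.10 to 3.79). There 4 of 470 5E1 barcodes held 76.4% of the C3 UMIs, carried all 11 mesothelial markers and had a median of 20739 UMIs, and without barcodes of 10 or more C3 UMIs the levels were 13.6 and 10.7 CPM.

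**Figure D4:**
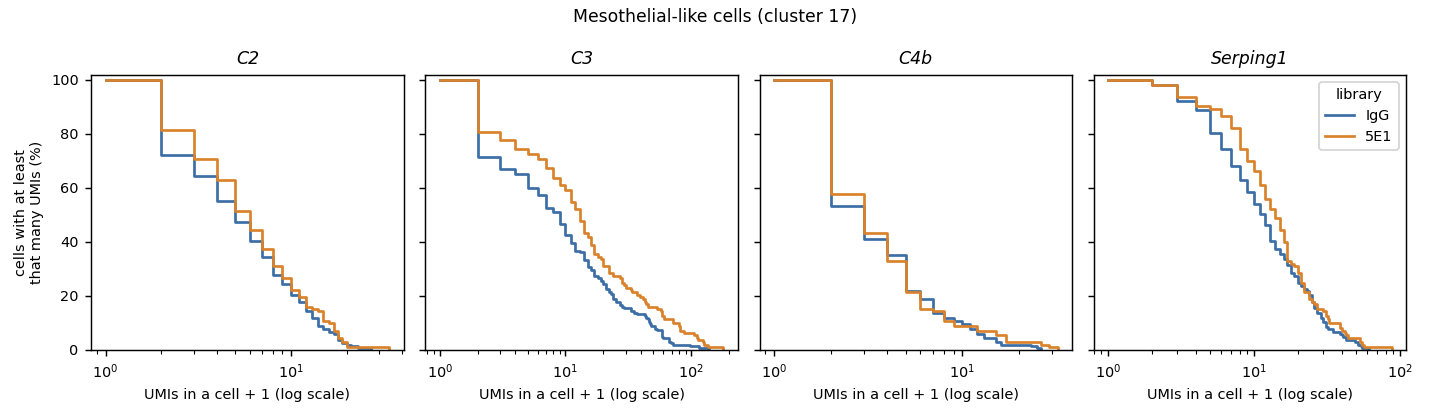
Share of the 169 IgG and 113 5E1 mesothelial-like cells (percent, y axis) that hold at least a given number of UMIs (x axis, UMIs + 1 on a log scale) of C2, C3, C4b and Serping1. The 5E1 curve of C3 lies above the IgG curve (medians of 11 and 7 UMIs), and C3 has the longest tail, to 178 and 136 UMIs.

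Several of these transcripts occurred together in single mesothelial-like cells: 83 of 169 IgG cells (49.1%) and 64 of 113 5E1 cells (56.6%) held UMIs of C2, C3, C4b and Serping1 together. The median was 4 of the 9 members per cell in both libraries. The mesothelial markers of the cluster summed to 10358 and 10118 CPM, all 11 were detected, and Msln stood at 4398 and 3685 CPM. Of the 8 members with enough UMIs in this cluster, 4 were at least 1.5-fold higher in 5E1 (3 C1q chains and Cfb) and none was lower, beside 4.95% and 5.66% of all genes tested there. The C1q counts rested on the 1 rich barcode in each library, without which the log2 ratios of C1qa, C1qb and C1qc were -0.89, -0.71 and -0.69.

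Cfb, or factor B, the protease subunit of the alternative convertase, showed the largest difference of the members other than C1q. In monocyte-like cells it stood at 58.0 CPM (240 UMIs, interval 50.9 to 65.8) in IgG and 19.8 CPM (33 UMIs, 13.6 to 27.8) in 5E1, 2.93-fold lower (interval 2.03 to 4.35). UMIs of Cfb were found in 197 of 1070 and 27 of 418 cells, with at most 3 in a cell, and after thinning in 5.09% and 1.94% of cells. Among B cell-like cells 0.526% and 0.235% held one without thinning. Median depths in monocyte-like cells were 3488.5 and 3596.5 UMIs. In B cell-like cells the levels were 1.46 and 0.479 CPM. The mix of monocytes differed too: cells with relatively more nonclassical than classical monocyte markers made up 40.7% of the cluster in IgG and 65.3% in 5E1. This cut is relative to the cluster and does not isolate types of monocyte. Cfb was 65.0 and 22.3 CPM in the classical-leaning cells (ratio 0.343, interval 0.195 to 0.564), on 17 UMIs in 5E1. In the nonclassical-leaning cells it was 43.6 and 17.7 CPM (0.407, 0.218 to 0.716), on 16 UMIs in 5E1. C3 was not lower in either kind of cell, with ratios of 1.48 (1.17 to 1.84) and 1.30 (1.004 to 1.690).

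Over the settings tried, the log2 ratio of Cfb in monocyte-like cells ran from -1.53 to -1.08, the latter among the Xist-only cells of 5E1. In the same cluster, 11 of 17 interferon-response and acute phase genes tested were at least 1.5-fold lower in 5E1 and 0 higher (median log2 ratio -0.73), where 8.33% of all genes tested were lower and 4.29% higher. The part of those genes, of the mix of monocytes, of the pups' sex and of the pooling in the Cfb difference was not tested. Of the 4 clusters with enough UMIs for a ratio, Cfb was counted as higher in 5E1 in 2: 6.51 and 14.02 CPM in cluster 10 (ratio 2.15, interval 1.44 to 3.27) and 42.5 and 66.7 CPM in mesothelial-like cells (1.57, 1.15 to 2.14; log2 ratio 0.65, and 0.45 without the deepest 5% of cells). Cluster 17 led in 5E1. In IgG the intervals of clusters 6 and 17 overlapped. In alveolar macrophage-like cells, the fourth cluster, Cfb was 12.3 and 16.4 CPM. On too few UMIs for a ratio, it was 18.2 and 7.35 CPM in dendritic-like cells (31 and 11 UMIs) and 9.67 and 5.45 CPM in interstitial macrophage-like cells (19 and 8 UMIs).

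**Figure D5:**
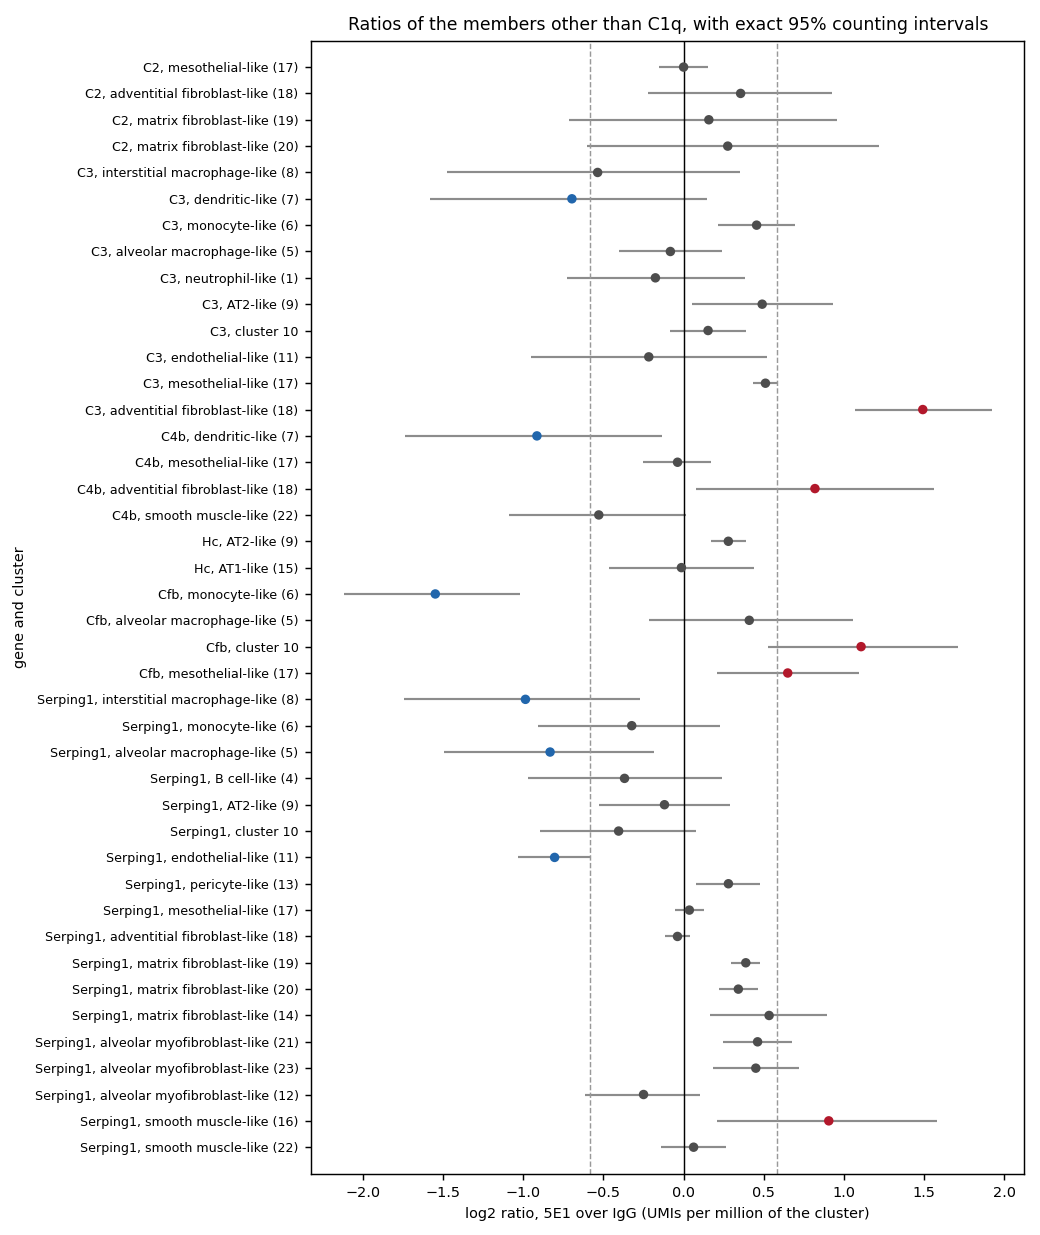
Log2 ratio of 5E1 over IgG (points) with exact 95% counting intervals (lines) for the 42 pairs of a cluster and a member other than C1q with at least 50 UMIs, red where at least 1.5-fold higher, blue where at least 1.5-fold lower. Cfb in monocyte-like cells lies lowest (-1.53) and C3 in adventitial fibroblast-like cells highest (1.49), and 31 of 42 points stay between the dashed lines of 1.5-fold.

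Hc encodes C5, the entry to the terminal steps, and was the member of AT2-like cells (cluster 9), the surfactant producers. It stood at 274 CPM (interval 259 to 288) in IgG and 332 (315 to 350) in 5E1, with 85.8% and 89.0% of all Hc UMIs. A UMI of Hc was found in 529 of 696 and 433 of 507 AT2-like cells, and after thinning in 27.6% and 29.6% of them. B cell-like cells held one in 0.526% and 0.235% of cells without thinning, and AT2-like cells had median depths of 6086 and 6998 UMIs. AT1-like cells (cluster 15), the flat gas-exchange cells, held 42.6 and 42.2 CPM, which is 15.6% and 12.7% of the AT2-like level. The 14 AT2 markers in AT1-like cells ranged from 4.89% to 34.6% of their AT2-like level in IgG and from 4.73% to 22.8% in 5E1, with medians of 10.9% and 9.91%, so Hc lay within that range in both libraries. Every other cluster was at or under 5.24 CPM in IgG and 3.96 in 5E1. The ratio in AT2-like cells was 1.21 (interval 1.13 to 1.31), and in AT1-like cells 0.991 (0.726 to 1.36). Among the Xist-only cells of 5E1 both passed 1.5-fold, with log2 ratios of 0.72 and -1.01.

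Serping1, the C1 inhibitor, was the member with the widest distribution, at 10 CPM or more in 22 of 23 clusters in IgG and 18 of 23 in 5E1. That limit lies under its level in B cell-like cells, and at 100 CPM or more stood 8 clusters in each library. Mesothelial-like cells led at 1186 CPM (interval 1137 to 1236) and 1216 (1159 to 1274), and a UMI was found in 166 of 169 and 111 of 113 of these cells, or 56.8% and 63.7% after thinning. In B cell-like cells the shares were 4.47% and 6.34%, or 2.40% and 0.939% after thinning. Fibroblasts followed: adventitial fibroblast-like cells at 705 and 687 CPM, matrix fibroblast-like cluster 20 at 699 and 885, cluster 19 at 416 and 544 and cluster 14 at 407 and 590. Clusters 18 and 20 had overlapping intervals in IgG but not in 5E1, and clusters 19 and 14 overlapped in both. Pericyte-like cells (cluster 13) held 203 and 247 CPM, smooth muscle-like cluster 22 131 and 137, and the alveolar myofibroblast-like clusters 21, 23 and 12 held 112 and 155, 63.0 and 86.1, and 60.1 and 50.6 CPM. B cell-like cells held 32.8 CPM (interval 23.9 to 43.9) and 25.4 (19.03 to 33.23), and the other epithelial, endothelial and immune clusters lay between 9.91 and 38.7 CPM in IgG and between 5.34 and 22.1 CPM in 5E1. Smooth muscle-like cluster 16 was counted as higher in 5E1, at 35.8 and 67.1 CPM, with a log2 ratio of 0.92 that turned to -0.05 among the Xist-only cells of 5E1.

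Serping1 in endothelial-like cells was 38.7 CPM (interval 35.0 to 42.6) in IgG and 22.1 (19.54 to 24.998) in 5E1, a ratio of 0.573 (0.488 to 0.671). Its log2 ratio ran from -0.93 to -0.79 over the settings tried. Both intervals overlapped those of B cell-like cells of the same library, where the ratio was 0.775 (0.511 to 1.18), so a level above that of B cell-like cells was not detectable at this depth. In the same cluster, 12 of 17 interferon-response and acute phase genes tested were at least 1.5-fold lower and 0 higher, where 3.85% and 2.38% of all genes tested were, and their part was not tested. Serping1 was also counted as lower in interstitial macrophage-like cells (31.0 and 15.7 CPM) and alveolar macrophage-like cells (17.4 and 9.76 CPM), under the B cell-like level. Those log2 ratios were -0.97, or -0.34 without the deepest 5% of cells, and -0.83, or -0.45 among the Xist-only cells of 5E1. In matrix fibroblast-like clusters 19, 20 and 14 the ratios were 1.31 (1.23 to 1.39), 1.27 (1.17 to 1.38) and 1.45 (1.12 to 1.86), all under 1.5-fold. In alveolar myofibroblast-like cluster 21 the ratio was 1.38 (1.19 to 1.60), with a log2 of -0.24 among the Xist-only cells of 5E1.

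Over all 9 members, 77 of 207 gene and cluster pairs had at least 50 UMIs, of which 8 were at least 1.5-fold higher in 5E1, 24 lower and 45 within that range, beside 4.38% higher and 6.32% lower of all pairs. Without the barcodes rich in C1q or C3 they were 3 higher and 12 lower of 53. The median log2 ratio of the 77 was -0.18, beside -0.01 for all pairs tested. Of the 24 lower pairs 18 were C1q chains, and of the other 6 members 5 pairs were higher and 6 lower of 42.

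Of 50 other complement genes listed, 49 were in the files, and C4a was not analysed here. They gave 214 pairs, of which 30 were at least 1.5-fold higher and 10 lower in 5E1, beside the same 4.38% and 6.32% of all pairs, with a median log2 ratio of 0.07. By role, classical and lectin initiators had 11 higher and 3 lower of 38 pairs, soluble regulators 4 and 1 of 24, membrane regulators 6 and 0 of 48, receptors 8 and 3 of 89, alternative pathway genes 1 and 2 of 11, and terminal components 0 and 1 of 4. Mesothelial-like cells also held C1ra and C1s1, the proteases of C1, at 132 and 175 CPM and 219 and 217 CPM. They held Clu, or clusterin, a soluble terminal regulator, at 1003 and 880 CPM. Colec11, a lectin-pathway collectin, was 80.3 CPM in IgG and 44.5 in 5E1 there (ratio 0.554, interval 0.407 to 0.747). In matrix fibroblast-like cells C1ra was 19.5 and 40.1 CPM in cluster 19 and 25.2 and 53.3 CPM in cluster 20, each higher in 5E1. C1s1 was 13.97 and 29.56 CPM in cluster 19. Cd55, a membrane protein that speeds convertase decay, was 5.197 and 17.41 CPM in cluster 19 (ratio 3.35, interval 2.17 to 5.16). C7, a terminal component, was 8.66 and 3.24 CPM there, on 80 and 8 UMIs.

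C5ar1, the receptor of the C5a fragment, was 353 CPM in IgG and 673 in 5E1 in neutrophil-like cells (ratio 1.91, interval 1.66 to 2.20). Cfp, or properdin, the stabiliser of the alternative convertase, was 90.9 and 165 CPM in the same cells and 87.7 and 54.6 CPM in alveolar macrophage-like cells. In interstitial macrophage-like cells Cfp stood at 348 and 295 CPM, C5ar1 at 274 and 339, and C3ar1, the C3a receptor, at 202 and 240. In AT2-like cells C6, a terminal component that binds C5b, stood at 48.7 and 55.9 CPM beside Hc.

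Patterns over the 23 clusters are given as Pearson's r of log2 (CPM + 1), a description over clusters that share library, depth and clustering. Genes were ranked among 11091 by the lower r of the libraries. C1qa was most like C1qb (0.975 in IgG and 0.955 in 5E1), Ccl24 (0.900 and 0.918), C1qc, Fcrls and Fcna. C2 was most like Upk1b (0.842 and 0.828), Angptl7, Sbsn, Slurp1 and Lrrn4, and C4b like Aldh1a2 (0.796 and 0.795), Tm4sf5, Angptl7, Lrrn4 and Slc48a1. C3 and Cfb were each other's nearest gene (0.829 and 0.767), followed by Slpi, Bst1, Cldn15 and Slurp1 for C3 and by Guca1a, Rab7b, Il18 and Atf3 for Cfb. The genomic neighbours Cfb and C2 reached only 0.46 and 0.38. Hc was most like Lyz1 (0.939 and 0.955), Sftpc, Rbpjl, S100g and Snhg11, and Serping1 like Gas1 (0.934 and 0.965), Nkain4, Cpxm1, Cdo1 and Col3a1.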

How the data were processed

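Libraries were made with the 10x 3' chemistry, per the labels' protocols. Cell Ranger 3.1.1 and the mouse build mm10 are named in the submitters' processing notes, and the matrix headers give software version 3.0.0. The authors deposited raw UMI counts per gene and barcode, with a table of the 23 clusters. How they filtered cells or treated doublets is not given in the sources used here, and no doublet caller was run. Only the barcodes they annotated, 13509 of 15021 and 9454 of 10519, entered the comparisons. The deposited counts were summed per library and cluster and divided by the cluster's total.

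With 1 library per condition no test between conditions was possible. Intervals are exact at 95% (Poisson for levels, conditional binomial for ratios, Clopper-Pearson for shares) and cover counting error only. A pair was counted as higher or lower at 1.5-fold or more where the libraries summed to 50 UMIs or more. For shares, cells were thinned to 1000 UMIs and shallower cells left out. All 9 members are named, other complement genes by level in the leading clusters or by size of the ratio, and the 5 genes most like each member by correlation over clusters. Values of 1 listed complement gene are not reported here. The members and lists were chosen with earlier results of these data known. Calculations used Python 3.11.15, numpy 2.4.6, scipy 1.17.1, pandas 2.3.3 and matplotlib 3.10.9. The 1.5-fold rule, the ratio intervals and the thinning were tested on simulated independent counts. Those counts lack the piling of UMIs in single barcodes seen here, and the other calculations were not simulated.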

Additional observations from a re-analysis of the deposited data

Results flagged for a closer look

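The authors left 1512 IgG and 1065 5E1 barcodes out of their clusters, with medians of 819 and 894 UMIs. For 3 of the 9 members the interval of the 5E1 to IgG ratio in these barcodes lay above 1. The share of all genes past the same limit was not calculated, so this count is not a result about the members. C3 was 53.7 CPM in 5E1 and 31.2 CPM in IgG, with 47 of its 118 UMIs in 1 barcode in 5E1 and at most 5 of 70 in 1 barcode in IgG. C1qa was 35.1 CPM on 77 UMIs in 5E1 and 21.9 CPM on 49 UMIs in IgG, with at most 18 and 9 in 1 barcode. The other chains did not follow: C1qb was 15.5 CPM in 5E1 and 22.3 in IgG (ratio 0.694, interval 0.435 to 1.09). C1qc was 18.7 and 16.9 CPM (1.10, 0.691 to 1.76). C4b was 12.7 CPM on 28 UMIs in 5E1 and 0.892 CPM on 2 UMIs in IgG, a ratio of 14.3 (exact 95% counting interval 3.60 to 124), with at most 7 UMIs in 1 5E1 barcode. These barcodes entered no comparison, and what they hold was not tested.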

How the results depend on the processing

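Among the 9 members, 8 pairs were higher and 24 lower in 5E1 by at least 1.5-fold, of 77 tested. At a minimum of 20 UMIs the counts were 16 and 53 of 124, where 6.98% and 9.83% of all pairs were higher and lower. At 200 UMIs they were 1 and 5 of 32 (2.13% and 3.16%), at 2-fold 4 and 13 of 77 (0.878% and 1.91%), and with cells thinned to 1000 UMIs 0 and 3 of 24 (5.67% and 6.83%). With only the Xist-only cells of 5E1 they were 15 and 19 of 67 (6.82% and 10.6%), and without the deepest 5% of cells 8 and 14 of 68 (4.59% and 6.21%). Without barcodes rich in C1q or C3, chosen after seeing the data, they were 3 and 12 of 53. Settings that keep fewer UMIs test fewer pairs. For the other complement genes (30 higher, 10 lower) the lower pairs were 35 at 20 UMIs and 21 in the Xist-only setting. The pairs of these genes were 9 higher and 3 lower at 200 UMIs, 10 and 3 at 2-fold, and 4 and 5 when thinned. Except at 2-fold, the pairs tested differed from the 214 of the main setting, and their numbers are not given here. The higher pairs at 20 UMIs and in the Xist-only setting are not given either, so these counts cannot be compared as shares. The median share of cells with a UMI of a member in its leading cluster was 49.1% and 61.1% in IgG and 5E1 at 1000 UMIs, 32.5% and 36.3% at 500, 61.4% and 73.9% at 2000, and 76.0% and 85.4% unthinned. In adventitial fibroblast-like cells the log2 ratios of C1qa, C1qb and C1qc turned to 0.35, 0.04 and 0.57 in the Xist-only setting and to 0.23, 0.13 and 0.79 without the deepest cells. Without barcodes of 10 or more C1q UMIs they did not turn, at -1.47 (43 IgG and 9 5E1 UMIs), -1.42 (37 and 8) and -0.86 (28 and 9). The log2 ratio of C3 in these cells turned to -0.14 without the deepest cells and to -0.49 without the rich barcodes. That of Serping1 in cluster 16 turned to -0.05 in the Xist-only setting. The cause was not tested. The leading cluster was the same for 9 of 9 members in each library under the 4 settings run on levels. The setting without rich barcodes left out C1q-rich ones only outside the leading cluster of C1q, and C3-rich ones only outside that of C3. It is therefore not a check of the leading cluster for the C1q chains and C3. Of the members' ratios, 31 of 67 left their interval and 4 more reversed a call in the Xist-only setting, 13 of 24 left it when thinned, 7 of 68 left it and 4 more reversed without the deepest cells, and 9 of 53 left it and 1 more reversed without the rich barcodes. Median-of-ratios scaling and totals without mitochondrial, ribosomal and haemoglobin genes left 77 of 77 within it. No paired analysis was possible because each condition is 1 library of pooled pups.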

Other observations

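Over all clusters, 80 of 211 pairs of interferon-response and acute phase genes were at least 1.5-fold lower in 5E1 and 24 higher (median log2 ratio -0.30). Of 273 pairs of immediate early genes, which respond to stimulation and to tissue dissociation, 76 were higher and 5 lower (median 0.35). Of all pairs tested, 6.32% were lower and 4.38% higher. Their part in the complement differences was not tested.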
